A study of Mus musculus with 4 samples.

Results

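Lipid-associated macrophages marked by Spp1 and Fabp5 were examined among the CD45+CD11b+ cells of mouse ovaries. They were picked out by a fixed rule on raw transcript counts (UMIs, unique molecular identifiers, each standing for 1 captured RNA molecule). A barcode was kept as a cell with at least 500 genes, at least 1000 gene UMIs, at most 10% mitochondrial UMIs and a leading hashtag of at least 10 counts and at least 3 times the next one. A kept cell was a member if Spp1 and Fabp5 together reached 20 per 10000 gene UMIs, with at least 1 UMI of Trem2 or Gpnmb and at least 10 of Lyz2. It could have at most 1 UMI of Ccr2, 2 of Arg1 and 1 of Ccr7, fewer than 8 of Fcgr4 and fewer than 3 of Mki67 and Top2a together. The rule found 198 members among 6281 kept cells. There were 145 among 4100 kept cells at 15 months and 53 among 2181 at 3 months.

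The cells came from virgin wild-type C57BL/6J females at 2 ages. The 15-month group was harvested at 14 to 17 months from 5 animals, and the 3-month group at 2 to 3 months from 6 animals. Within an age, 3 pools of animals were each marked with a hashtag, an antibody with a sequenced barcode, and then joined into 1 sort and 1 droplet 3' library. The protocol puts 2 animals in every 3-month pool and a single animal in 1 unnamed 15-month pool, whereas the series description gives 2 animals to every pool. A difference of age thus cannot be told apart from one of library. The p-values of age within a cell class rest on the spread between the 3 pools of an age.

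Lipid-associated macrophages are a state that macrophages take on where they load lipid, as in obese fat, atherosclerotic plaques and injured brain. Trem2, a surface receptor for lipids and lipoproteins, drives much of the programme in those tissues. Fabp5 carries fatty acids inside the cell, Spp1 encodes the secreted matrix protein osteopontin, Gpnmb is a lysosomal membrane glycoprotein and Lgals3 encodes the glycan-binding protein galectin-3. In the ovary, macrophages clear the cells of dying follicles and regressing corpora lutea.

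Spp1, Trem2 and Gpnmb are among the genes that defined the cells. The 250 bases before a RefSeq start site of each (assembly GRCm38.p6) are shown, 5' to 3' on the coding strand. Fabp5 also defined the cells, but the RefSeq promoters used held no entry for it. Capitals mark matches, on either strand, to GAGGAAGT (the PU.1 motif), TGANTCA or CACGTG (the E-box of the lysosomal regulators of the MiT family). TGANTCA is a loosened AP-1 string that takes any base at N, where the AP-1 consensus has C or G. None of these letter strings overlap within a window.
Spp1, chr5:104434861-104435110, plus strand: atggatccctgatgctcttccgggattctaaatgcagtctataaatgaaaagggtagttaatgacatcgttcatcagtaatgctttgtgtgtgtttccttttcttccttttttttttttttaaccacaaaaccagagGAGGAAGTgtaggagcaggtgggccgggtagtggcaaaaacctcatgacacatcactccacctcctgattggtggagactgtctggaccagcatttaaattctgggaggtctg
Trem2, chr17:48346151-48346400, plus strand: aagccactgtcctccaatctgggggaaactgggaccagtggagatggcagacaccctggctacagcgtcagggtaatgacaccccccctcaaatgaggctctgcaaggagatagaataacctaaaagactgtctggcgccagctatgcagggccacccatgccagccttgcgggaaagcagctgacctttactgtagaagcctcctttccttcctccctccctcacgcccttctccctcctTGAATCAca
Gpnmb, chr6:49036268-49036517, plus strand: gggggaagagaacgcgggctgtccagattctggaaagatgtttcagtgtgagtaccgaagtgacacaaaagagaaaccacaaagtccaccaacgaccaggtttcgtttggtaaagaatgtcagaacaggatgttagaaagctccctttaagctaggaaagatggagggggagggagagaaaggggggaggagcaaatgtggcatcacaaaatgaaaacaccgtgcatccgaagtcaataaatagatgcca
The Spp1 window held 1 PU.1 match, the Trem2 window 1 match to the loosened AP-1 string and the Gpnmb window none. The Trem2 match has A at the centre, so it is not the AP-1 consensus. The table lists a second start of Spp1, and its window at chr5:104435942-104436191, not printed, held no match. Over 32851 promoter windows of this length, 2.44% held the PU.1 string, 6.75% the loosened AP-1 string and 6.02% the E-box. These are matches of letters only.

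The 6 pools supplied 54, 76 and 15 members at 15 months and 12, 19 and 22 members at 3 months. Their summed depth was 770526, 1146453 and 273768 gene UMIs in the 15-month pools and 125888, 281797 and 296168 in the 3-month pools. The median member held 14119 UMIs at 15 months and 12544 at 3 months. The 2 libraries held 4939 and 3135 barcodes with 45060166 and 27277073 gene UMIs, at 15 and 3 months. They shared 3 barcodes, none of them a member. Red cell RNA differed between the libraries in the members too: the 6 red cell markers summed to between 11.0 and 24.4 CPM, that is, UMIs scaled to a total of 1000000 gene UMIs, in the 15-month pools and between 376 and 556 CPM in the 3-month pools.

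The expression steps of the rule cut the kept cells to 598 with enough Spp1 and Fabp5, 476 with Trem2 or Gpnmb, 459 with Lyz2, 312 with little Ccr2, 227 with little Arg1 and 198 after the last 3 limits. Just inside the threshold, 19 members had 20 to 25 Spp1 and Fabp5 UMIs per 10000, and 24 cells that met every other limit had 15 to under 20. Members with a single UMI of Trem2 or Gpnmb numbered 7, and 12 cells that met the other limits had none.

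The macrophage label was checked on 7 markers other than the C1q chains, among them Adgre1 (F4/80), Csf1r, Cd68, Mrc1, Fcgr1 and Mertk. They summed to between 2871 and 3273 CPM in members of the 15-month pools and between 2645 and 3140 CPM in those of the 3-month pools, against 191 to 356 CPM at 15 months and 179 to 416 CPM at 3 months in a neutrophil gate (high S100a8 and S100a9). In the other C1q cells described below they summed to between 2832 and 3099 CPM at 15 months and between 2489 and 3376 CPM at 3 months. Markers of other cells were not all at 0. The 7 neutrophil markers summed to between 79.2 and 172 CPM in the 15-month pools and between 15.9 and 517 CPM in the 3-month pools, with Cxcr2 and Lcn2 at 0. The 7 theca or luteal markers summed to between 51.1 and 244 CPM at 15 months and between 33.8 and 202 CPM at 3 months, with Lhcgr at 0, and the 7 granulosa markers to between 6.49 and 121 CPM at 15 months and between 0 and 31.9 CPM at 3 months, with Amh, Cyp19a1 and Fshr at 0. The 8 T and NK cell markers reached at most 8.72 CPM at 15 months and 125 CPM at 3 months, with Ncr1 at 0. B cell markers (2 of 6 at 0) lay between 54.1 and 64.9 CPM at 15 months and between 33.8 and 63.9 CPM at 3 months. Dendritic cell markers (3 of 7 at 0, Flt3, Zbtb46 and Itgae) lay between 28.6 and 32.9 CPM at 15 months and between 15.9 and 33.8 CPM at 3 months. Endothelial markers (1 of 6 at 0, Emcn) reached 76.7 CPM at 15 months and 3.55 CPM at 3 months, and mast cell or basophil markers (4 of 6 at 0) reached 2.62 CPM at 15 months and 0 CPM at 3 months. The part of such RNA in the results below was not tested. Lyve1, a receptor of one resident macrophage subset, had a UMI in 0 of 198 members, which allows a share of up to 1.52% of cells with a UMI. Stroma markers summed to between 161 and 369 CPM in the 15-month pools and between 111 and 135 CPM in the 3-month pools.

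The share of lipid-associated cells differed less between the ages than among the 15-month pools. They made up 7.04%, 3.12% and 1.67% of kept cells in 15-month pools 1, 2 and 3, with 95% Wilson intervals of 5.44 to 9.07%, 2.50 to 3.89% and 1.02 to 2.74%. In 3-month pools 1, 2 and 3 they made up 1.66%, 3.97% and 2.25%, with intervals of 0.949 to 2.87%, 2.55 to 6.11% and 1.49 to 3.39%. These intervals cover counting error only. The mean share was 3.94% ± 2.78 in the 15-month pools and 2.62% ± 1.20 in the 3-month pools (SD, n = 3 of each), and a two-sided exact permutation test gave p = 0.6, where 0.1 is the smallest p possible with 3 pools against 3. The ages overlapped, and without 15-month pool 1 the difference turned to -0.228 percentage points. As a share of cells with at least 10 Lyz2 UMIs the means were 6.91% ± 4.70 at 15 months and 4.25% ± 1.88 at 3 months (exact permutation p = 0.6).

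**Figure D1:**
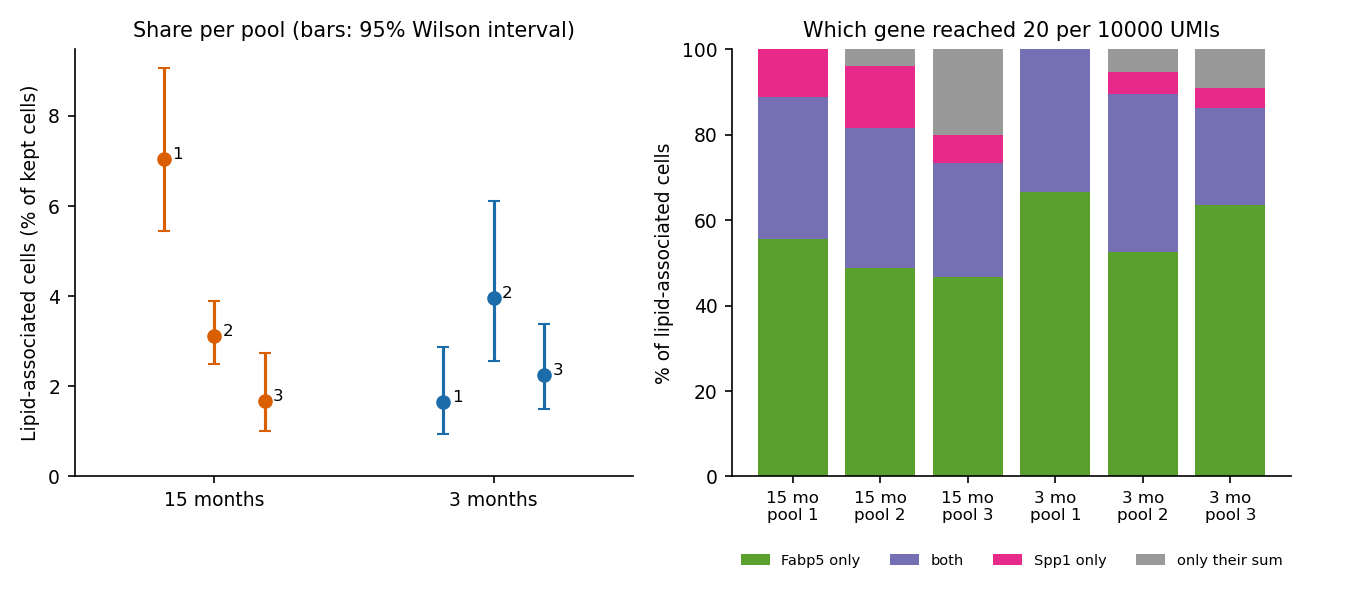
Left, the share of lipid-associated cells among kept cells in each hashtag pool (percent, bars are 95% Wilson intervals, numbers are pools); right, the percent of these cells in each pool in which Fabp5, both genes, Spp1, or only their sum reached 20 per 10000 UMIs. The 15-month pools spread from 1.67 to 7.04% and the 3-month pools from 1.66 to 3.97%.

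Fabp5 marked more of these cells than Spp1. Fabp5 alone reached 20 per 10000 in 106 members, both genes did in 63, Spp1 alone in 20, and only their sum in 9. Spp1 was uneven: the 20 members with the most held 62.7% of all its UMIs, against 37.9% for the 20 highest of Fabp5, and 23 members had no Spp1 UMI whereas 6 had no Fabp5 UMI. The single highest cell had 1561 Spp1 UMIs. The median member had 13.6, 17.0 and 10.4 Spp1 UMIs per 10000 in the 15-month pools and 9.70, 14.3 and 7.05 in the 3-month pools. These levels were used by the rule and are given without a test.

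Members with Spp1 alone made up 11.1%, 14.5% and 6.67% of the 15-month pools and 0%, 5.26% and 4.55% of the 3-month pools. The pools of the ages did not overlap here, but the counts were 18 cells at 15 months and 2 at 3 months. These shares rest on the levels the rule used, so they too have no test. Fabp5 alone marked 50.3% ± 4.66 of the 15-month members and 61.0% ± 7.39 of the 3-month members (SD over 3 pools of each age). Both genes marked 31.0% ± 3.73 at 15 months and 31.0% ± 7.35 at 3 months.

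The expression rule used neither MHC class II, Cd36 nor Acp5, so these were read in members thinned to 2000 UMIs each (190 of 198 were deep enough, 141 at 15 months and 49 at 3 months, and 312 of 497 neutrophil-gate cells). Cd36, a fatty acid and oxidised lipoprotein receptor, was detected in 49.1% ± 8.12 of members at 15 months and 56.3% ± 23.3 at 3 months, against 0.962% of cells in a neutrophil gate (median 2157 UMIs, against 13876 in members). Before thinning the shares were 86.4% of members and 0.805% of neutrophil-gate cells. Acp5, a lysosomal acid phosphatase of osteoclasts and lipid-laden macrophages, was detected in 35.5% ± 1.93 at 15 months and 26.8% ± 11.96 at 3 months, against 5.13% in the neutrophil gate (68.7% of members and 5.84% of the gate before thinning). H2-Aa, an MHC class II chain, was detected in 76.5% ± 14.7 at 15 months and 59.9% ± 21.03 at 3 months, against 17.0% in the neutrophil gate (83.3% and 17.5% before thinning). The 6 detection shares compared by age, which also took in C1qa, Lyve1 and Folr2, had an adjusted p of at least 0.8 (two-sided exact permutation test). With 3 pools against 3, the smallest p this test can give is 0.1, which is above the threshold of the gene tests below. No share could have passed, so the test cannot decide whether detection differed by age.

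**Figure D2:**
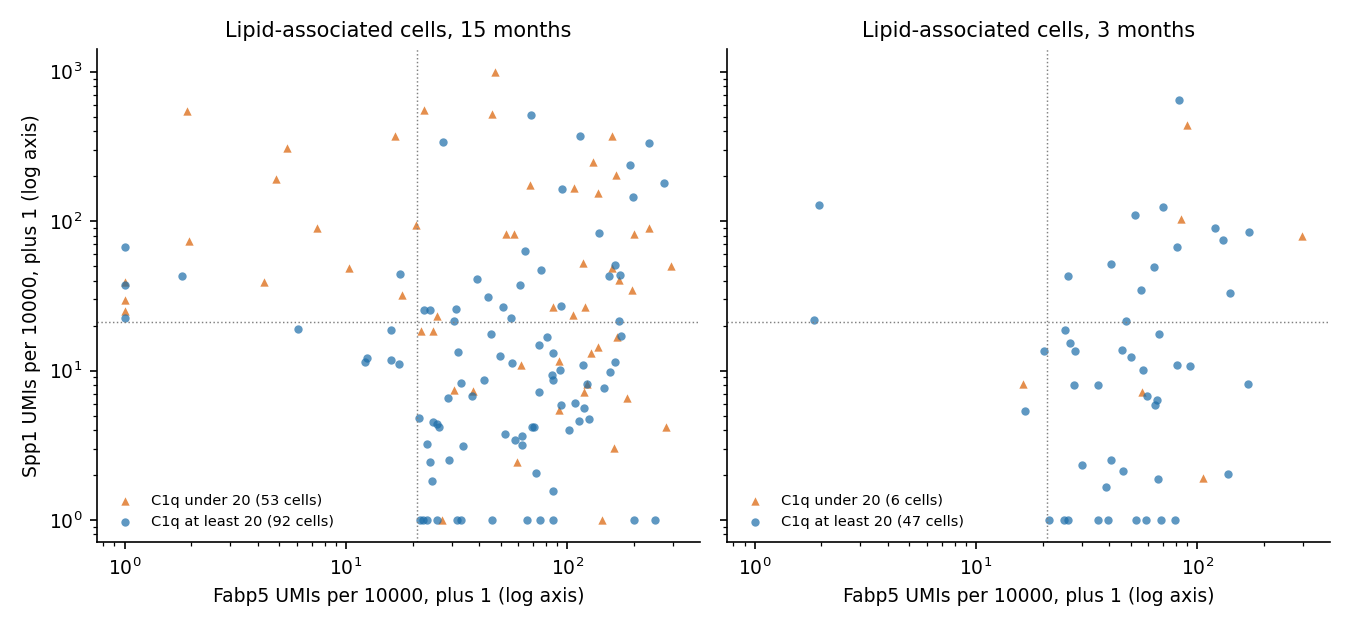
Fabp5 (x axis) and Spp1 (y axis) UMIs per 10000, plus 1, on log axes, 1 point per lipid-associated cell at 15 months (left) and 3 months (right); triangles are cells with C1q chains under 20 per 10000 (53 and 6 cells) and circles the others (92 and 47 cells). Dotted lines stand at 20 per 10000. Of the 18 cells at 15 months with Spp1 but not Fabp5 at 20 per 10000, 13 are triangles.

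The members fell along a range of C1q, the secreted first component of the complement cascade and a general macrophage product. This split was chosen after its values were seen and gets no test. The 3 C1q chains together reached 20 per 10000 in 61.1%, 61.8% and 80.0% of members of the 15-month pools and in 83.3%, 84.2% and 95.5% of members of the 3-month pools. The ages did not overlap. The C1q-low cells numbered 21, 29 and 3 in the 15-month pools and 2, 3 and 1 in the 3-month pools.

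Only 15-month pools 1 and 2 held at least 5 C1q-low cells, so the comparison here is limited to them. Their C1q-low cells carried more of the following than the C1q-high cells of the same pools. Spp1 was at 18499 and 6155 CPM in C1q-low cells and 3929 and 4395 CPM in C1q-high cells. Cd9, a tetraspanin of lipid-associated macrophages, was at 2465 and 1610 CPM against 609 and 718 CPM. Clec4e, the receptor Mincle, was at 371 and 898 CPM against 63.0 and 79.0 CPM. Slc7a11, the cystine importer, was at 248 and 505 CPM against 44.1 and 59.5 CPM. Vegfa was at 255 and 513 CPM against 98.6 and 150 CPM, and Il1rn, the interleukin-1 receptor antagonist, was at 303 and 398 CPM against 77.7 and 104 CPM.

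The same C1q-low cells carried less Apoe, the apolipoprotein of cholesterol export, at 13221 and 16516 CPM against 49819 and 39174 CPM. Selenop, a secreted selenium carrier, was at 116 and 348 CPM in C1q-low cells and 2624 and 1702 CPM in C1q-high cells. Trem2 was at 734 and 821 CPM against 1455 and 1345 CPM, Csf1r at 204 and 201 CPM against 374 and 273 CPM, and Mrc1, the mannose receptor, at 3.40 and 40.1 CPM against 81.9 and 123 CPM. Gpnmb ran the other way, at 2673 and 2610 CPM against 1660 and 1915 CPM. Cd68, a macrophage lysosomal marker, was near even, at 1588 and 1586 CPM in C1q-low cells and 1394 and 1508 CPM in C1q-high cells. Genes known from monocytes were higher too in C1q-low cells, most of them in both pools. Ly6c2, a classical monocyte marker, was at 23.8 and 198 CPM in C1q-low cells and 2.10 and 18.1 CPM in C1q-high cells. Chil3 was at 98.6 and 345 CPM against 23.1 and 46.6 CPM, Fn1, fibronectin, at 442 and 332 CPM against 176 and 77.7 CPM, and F10, coagulation factor X, at 462 and 492 CPM against 96.5 and 99.7 CPM. S100a4, a calcium-binding protein, was at 816 and 457 CPM against 160 and 106 CPM. Plac8 was at 10.2 and 166 CPM in C1q-low cells and 10.5 and 3.88 CPM in C1q-high cells, so its difference lay in pool 2 only.

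Next the lipid-associated cells were set beside the other C1q cells, which met the same limits but had Spp1 and Fabp5 under 20 and C1q at or over 20 per 10000 (712 cells, 409 at 15 months and 303 at 3 months). The rule chose the cells, so this profile is a description and has no test. Members had no C1q limit, and 59 of them were under 20 per 10000, so the classes also differed in C1q by choice. Ratios are medians over the 6 pools of log2 ratios with 10 CPM added to each level. Of 1511 genes at 100 CPM or more in either class, 241 (15.9%) were higher in lipid-associated cells with no overlap over the 6 pools, and 203 (13.4%) were lower.

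Outside the rule, the gene with the largest ratio was Atp6v0d2, a macrophage and osteoclast subunit of the proton pump that acidifies lysosomes. It had 318, 345 and 241 CPM in lipid-associated cells of the 15-month pools and 135, 373 and 179 CPM in those of the 3-month pools. In other C1q cells it had 19.2, 23.8 and 4.32 CPM at 15 months and 11.3, 23.7 and 6.25 CPM at 3 months. The median log2 ratio was 3.50, and every pool of lipid-associated cells was above every pool of other C1q cells. Il7r, the interleukin-7 receptor chain, had a log2 ratio of 3.34, with a median of 176 CPM in lipid-associated cells and 9.34 CPM in other C1q cells. Lgals3, a fixed marker that the rule did not use, had a ratio of 2.98, with medians of 9003 CPM and 999.8 CPM.

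The other genes among the 15 highest had smaller ratios. Fabp4, the adipocyte-type fatty acid carrier, had a log2 ratio of 2.55 with medians of 742 CPM in lipid-associated cells and 114 CPM in other C1q cells. Capg, an actin-capping protein, had one of 2.60, Syngr1 one of 2.89, Vat1 one of 2.44 and Cstb, a cathepsin inhibitor, one of 2.28. Emp1, Adam8, Sgk1, Esd, Cd9, Anxa1 and Rnh1 lay between 2.03 and 2.26. The 8 lowest were Igfbp7 (-4.03), Mgp, Il1b (-3.39), Mgl2 (-3.04), Sparc, Nfkbiz, Hpgd and Col1a2 (-2.83). Igfbp7, Mgp, Sparc and Col1a2 are matrix or stromal genes, and stroma markers summed to between 475 and 1594 CPM in other C1q cells at 15 months and between 585 and 840 CPM at 3 months. Their part in these ratios was not tested. Il1b, the cytokine interleukin-1 beta, had a median of 118 CPM in lipid-associated cells and 1145 CPM in other C1q cells.

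**Figure D3:**
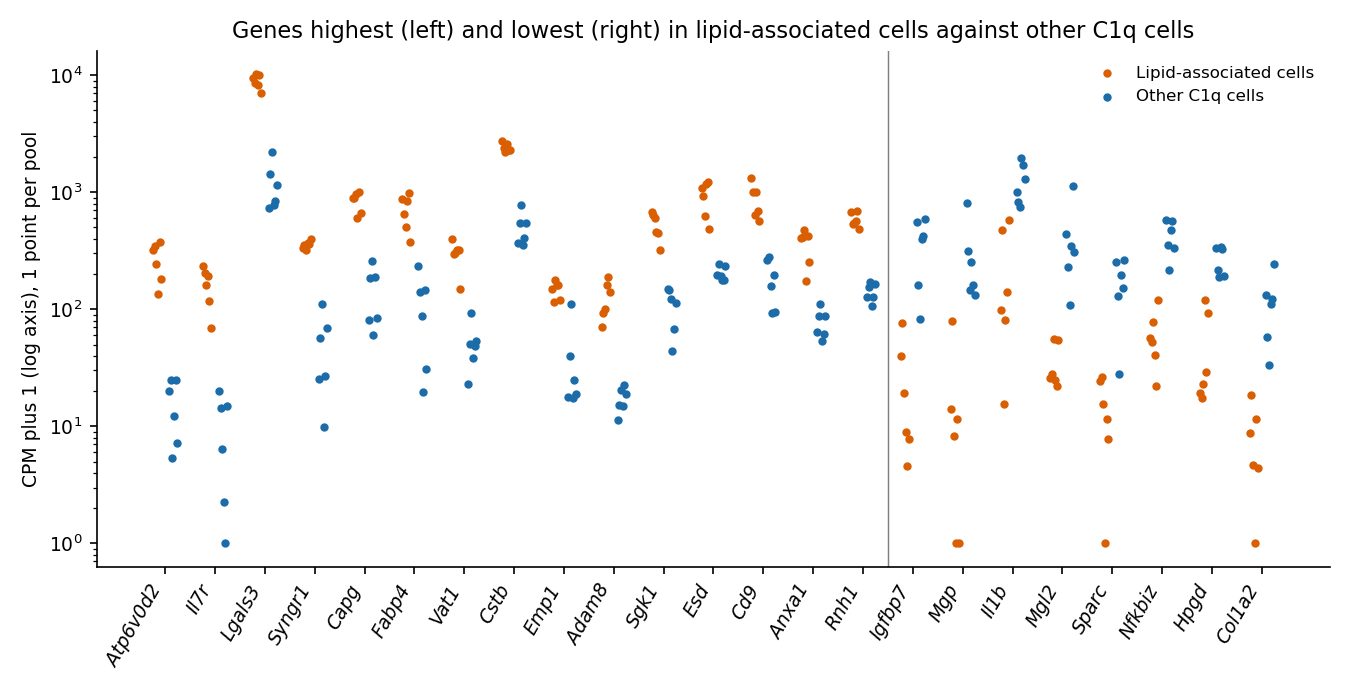
CPM plus 1 (log axis) of the 15 genes highest and the 8 lowest in lipid-associated cells against other C1q cells, outside the rule; each point is 1 of the 6 pools, with lipid-associated cells left of other C1q cells. No gene's pools overlap between the classes, which the choice of these genes required.

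Gene lists were read by function against the 15.9% higher and 13.4% lower over all genes and a median log2 ratio of 0.09. Rule genes were not removed from these lists, so any that a list holds was counted although the rule chose the cells by it. Of the 6 rule genes at 100 CPM or more, 5 were higher without overlap and 1 lower. The count of lipid-associated markers is thus no check of the label. Of 21 lipid-associated markers at 100 CPM or more, 17 were higher without overlap and none lower (median 1.52). Of 9 cholesterol storage and efflux genes, 5 were higher and none lower (median 1.12). Plin2, the lipid droplet coat protein, had a median of 1768 CPM in lipid-associated cells and 467 CPM in other C1q cells, with a ratio of 1.92. Apoe was within 0.17 of even. No gene of the sterol synthesis list reached 100 CPM in either class.

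Of 20 lysosomal genes, 10 were higher and none lower (median 0.50). Ctsd, the aspartyl protease cathepsin D, had a median of 6708 CPM in lipid-associated cells and 1610 CPM in other C1q cells, and Lipa, lysosomal acid lipase, had 621 CPM and 209 CPM. Of 13 proton pump subunits, 8 were higher and none lower (median 0.84). Of 9 glycolysis genes, 7 were higher and none lower (median 0.94), with Aldoa at 612 CPM in lipid-associated cells and 253 CPM in other C1q cells. Of 9 oxidative stress genes 5 were higher and 1 lower (median 1.18), and of 11 iron genes 5 were higher and none lower, with the ferritin chain Fth1 at 33774 CPM in lipid-associated cells and 14635 CPM in other C1q cells.

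Other lists leaned the opposite way. Of 6 MHC class II genes, 5 were lower and none higher (median -1.22), with H2-Aa at a median of 3153 CPM in lipid-associated cells and 6627 CPM in other C1q cells. Of 18 immediate early genes, the first transcription factors that stimulated cells switch on, 7 were lower and none higher (median -0.93). Of 9 macrophage markers, 6 were lower and 1 higher (median -0.79), although the C1q chains among them were used to choose the other cells. Csf1r, the receptor for the macrophage growth factor, had a median of 254 CPM in lipid-associated cells and 588 CPM in other C1q cells. Mrc1 had 94.1 CPM and 431 CPM. Neither gene was used to choose cells, but both were lower in the C1q-low members of 15-month pools 1 and 2. The part of the C1q limit in these ratios was not tested.

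The age contrast among lipid-associated cells was not used by the rule and was tested. UMIs were summed per pool and fitted with edgeR's quasi-likelihood test with Benjamini-Hochberg adjustment over 3439 genes, at a threshold of 0.05. It called 20 genes (0.582%), of which 16 rose (0.465%) and 4 fell (0.116%) at 15 months against 3 months. Over all genes tested, 7.62% were higher and 13.6% lower at 15 months with no overlap between the pools of the ages. The median log2 ratio was -0.01, and 511 genes had an unadjusted p under 0.05. Ratios below are log2, 15 months over 3 months, with their standard error.

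Hp, which encodes haptoglobin, the haemoglobin-binding plasma protein also made by myeloid cells, had 102.5, 93.3 and 110 CPM in the 15-month pools. It had 0, 7.10 and 0 CPM in the 3-month pools. These were 216 UMIs in 36 of 145 cells at 15 months and 2 UMIs in 2 of 53 cells at 3 months. Scaled to the summed UMIs of each age, the ratio was 34.7, with a 95% exact counting interval of 9.49 to 288. That interval covers counting error only and leaves out the spread between cells and between pools. Every 15-month pool was above every 3-month pool (adjusted p = 0.00126, edgeR). The C1q-low cells held 154 of its UMIs over both ages and the C1q-high cells 64: Hp was at 221, 174 and 548 CPM in C1q-low and 29.4, 54.4 and 26.1 CPM in C1q-high cells of the 15-month pools. In the C1q-high cells of the 3-month pools it was at 0, 8.41 and 0 CPM. The part that the share of C1q-low cells has in the difference was not tested. Hp is on mouse chromosome 8 at 109575128 to 109579172 (GRCm38).

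Ctss, cathepsin S, the lysosomal protease that trims the MHC class II invariant chain, had 5365, 5297 and 6454 CPM at 15 months and 2963, 2839 and 2792 CPM at 3 months. It rose by 1.07 ± 0.12 (adjusted p = 0.00127, edgeR), and the ages did not overlap. The levels were alike in the C1q-high cells alone, with 5379, 5483 and 6587 CPM at 15 months and 2984, 2759 and 2815 CPM at 3 months. Ctss lies on chromosome 3 at 95526786 to 95556403.

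Itgb2, the beta-2 integrin chain CD18 that pairs with CD11b, rose by 1.66 ± 0.22 (adjusted p = 0.00445, edgeR). It had 397, 389 and 391 CPM at 15 months and 71.5, 131 and 165 CPM at 3 months. CD11b, which CD18 pairs with, was used in the sort. In C1q-high cells it had 243, 299 and 339 CPM at 15 months and 63.9, 130 and 167 CPM at 3 months, again with no overlap. Itgb2 lies on chromosome 10 at 77530252 to 77565708.

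Further genes that rose act in the lysosome or at the cell surface. Gm2a, the activator protein that presents ganglioside GM2 for breakdown, had 308, 353 and 281 CPM at 15 months and 167, 160 and 132 CPM at 3 months (1.15 ± 0.18, adjusted p = 0.0107, edgeR). Cd63, a tetraspanin of late endosomes, had 2415, 2244 and 2341 CPM at 15 months and 1700, 1515 and 1219 CPM at 3 months (0.75 ± 0.14, adjusted p = 0.0296, edgeR). Mmp14, a membrane-bound matrix metalloprotease, had 118, 123 and 106 CPM at 15 months and 71.5, 39.0 and 37.1 CPM at 3 months (1.46 ± 0.26, adjusted p = 0.0296, edgeR). In all 3 the ages did not overlap. Gm2a lost its call without 3-month pool 2 or pool 3, with the highest adjusted p over its alternatives at 0.0639, and Cd63 and Mmp14 lost theirs without 15-month pool 1 or 2 or 3-month pool 2 or 3 (highest adjusted p 0.133 and 0.115, edgeR). Gm2a was also lost without cells over 30000 UMIs, and Cd63 with a limit on haemoglobin UMIs. Mmp14 was also lost with stricter mitochondrial, Spp1 and Fabp5, or Trem2 and Gpnmb limits. It was lost too in the C1q-high members alone and with pool number as a block.

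Malt1, a scaffold of NF-kB signalling, rose by 1.98 ± 0.34, and Bhlhe40, a transcription factor, by 1.28 ± 0.23 (adjusted p = 0.0263 and 0.0296, edgeR). Ahnak2 rose by 1.83 ± 0.27, Ccdc88a, an actin-binding protein, by 1.23 ± 0.22, Zfp36l2, an RNA-binding protein that shortens the life of mRNAs, by 1.13 ± 0.21, and Pira2, a member of a receptor family of near-identical genes whose reads can be split, by 2.47 ± 0.47. Gatm, the first enzyme of creatine synthesis, fell by 2.12 ± 0.38 on the log2 scale, with 19.5, 51.5 and 84.0 CPM at 15 months and 127, 213 and 260 CPM at 3 months (adjusted p = 0.0296, edgeR). The ages did not overlap in Gatm, though its C1q-low cells at 15 months had 3.40, 13.4 and 0 CPM. Malt1 was higher in C1q-low cells, at 156 and 334 CPM in 15-month pools 1 and 2 against 79.8 and 89.3 CPM in their C1q-high cells. All but Ahnak2 of these 7 genes lost their call when single pools were left out. For Bhlhe40, Ccdc88a and Gatm these were 15-month pools 1 and 2 and 3-month pools 2 and 3, and for Malt1 they were 3-month pools 1 and 2. For Zfp36l2 they were 15-month pools 1 and 3 and 3-month pools 1 and 2, and for Pira2 15-month pools 1 and 3 and 3-month pools 2 and 3. The highest adjusted p over the alternatives was 0.124 for Malt1, 0.1102 for Bhlhe40, 0.153 for Ccdc88a, 0.112 for Zfp36l2, 0.153 for Pira2 and 0.0981 for Gatm (edgeR or DESeq2). In the C1q-high members alone Malt1, Ccdc88a, Zfp36l2 and Pira2 were not called. With pool number as a block Malt1, Bhlhe40, Ccdc88a, Zfp36l2 and Pira2 were not called.

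The other 7 calls were red cell, nuclear, ribosomal-repeat or mitochondrial RNA. Hbb-bs, Hba-a1 and Hba-a2, the haemoglobin chains, fell by 4.52, 3.98 and 4.26 on the log2 scale, with the red cell marker sums given above. Hba-a1 and Hba-a2 are near-identical, so their reads can be split. Neat1, a nuclear non-coding RNA, rose by 1.74 ± 0.22 and mt-Co3, a mitochondrially encoded oxidase subunit, by 0.75 ± 0.11. Gm42418 and AY036118, which overlap on opposite strands of chromosome 17, rose by 1.89 ± 0.24 and 2.19 ± 0.39. The call of mt-Co3 was lost without 15-month pool 1 or 3-month pool 2, that of AY036118 without 15-month pool 1 or 3-month pools 1 or 3, and that of Hba-a2 without 3-month pool 3 (highest adjusted p 0.0517, 0.116 and 0.0612, edgeR). AY036118 was also lost with a limit on haemoglobin UMIs, without cells over 30000 UMIs, among genes of at least 50 CPM and with pool number as a block. In other C1q cells of the same pools Gm42418 had a ratio of 1.63 ± 0.24 (adjusted p = 0.0223, edgeR) and Hbb-bs one of -9.35 ± 1.27 (adjusted p = 0.0179, edgeR).

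**Figure D4:**
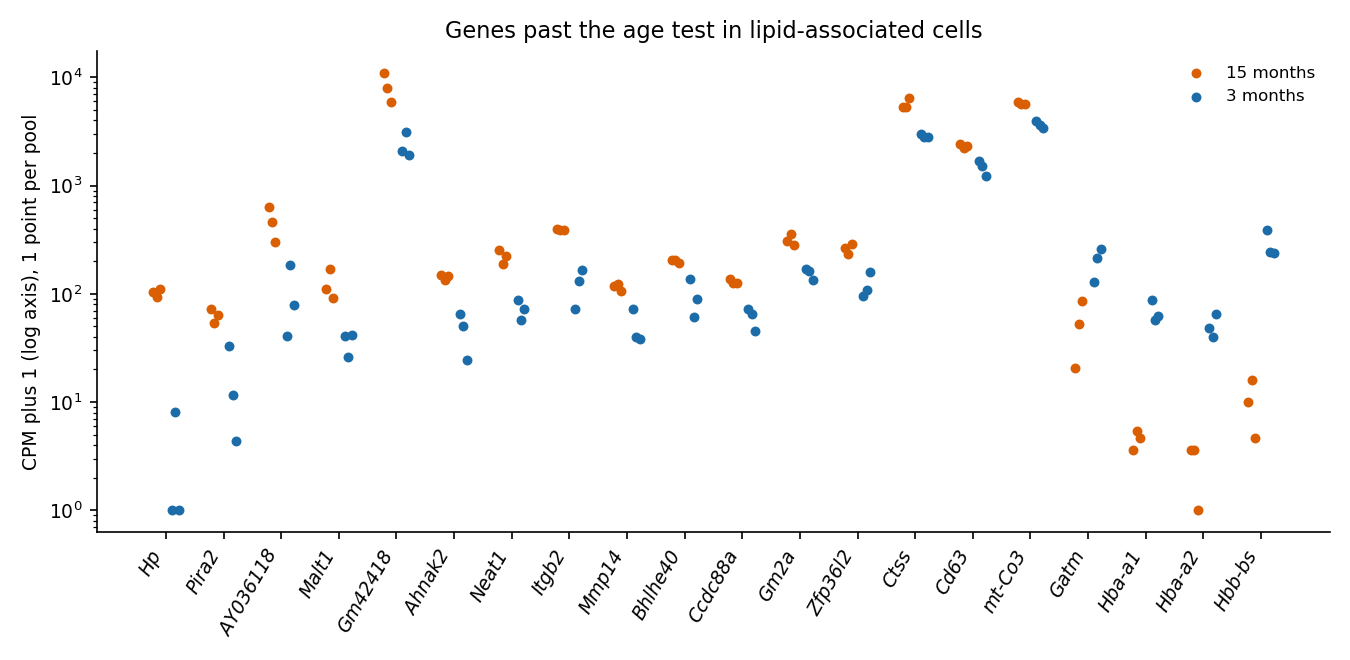
CPM plus 1 (log axis) of the 20 genes past the age test in lipid-associated cells, 1 point per hashtag pool, 15 months left of 3 months for each gene, ordered by log2 ratio. Hp, at the left, had 93.3 to 110 CPM at 15 months and 0 to 7.10 CPM at 3 months.

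The rule genes are given by age without a test. Spp1 had 9490, 4969 and 1899 CPM at 15 months and 4035, 6767 and 1985 CPM at 3 months, and Fabp5 had 9595, 7946 and 7846 CPM at 15 months and 7125, 7534 and 5635 CPM at 3 months. Gpnmb had 2047, 2141 and 1501 CPM at 15 months and 1176, 1423 and 766 CPM at 3 months, with every 15-month pool above every 3-month pool. Trem2 had 1180, 1174 and 1384 CPM at 15 months and 1501, 1781 and 1621 CPM at 3 months, with every 15-month pool below every 3-month pool. Spp1 overlapped between the ages.

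Gene lists were counted in the age fit against the 0.582% of all genes called. The 6 MHC class II genes tested had positive ratios, with a median of 0.82, and none was called. H2-Aa had 3141, 3165 and 5059 CPM at 15 months and 1215, 1299 and 3306 CPM at 3 months (1.01 ± 0.34, adjusted p = 0.193, edgeR). The third pool was the highest of each age, so the ages overlapped. Of 7 monocyte markers, all had positive ratios (median 1.11) and Hp alone was called. Chil3, a chitinase-like protein, had 51.9, 144 and 98.6 CPM at 15 months and 23.8, 21.3 and 0 CPM at 3 months (3.01 ± 0.66, adjusted p = 0.0666, edgeR).

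The medians of lipid and lysosomal lists lay close to that of all genes. Of 23 lipid-associated markers, Cd63 was called, 15 had positive and 8 negative ratios, and the median was 0.10. Of 23 lysosomal genes, Ctss and Cd63 were called, with 16 positive and 7 negative ratios and a median of 0.12. None of 15 proton pump subunits, 14 cholesterol storage and efflux genes or 11 lipid uptake genes was called, with medians of 0.16, 0.07 and -0.05. Plin2 had 1573, 1244 and 1428 CPM at 15 months and 1962, 2307 and 2029 CPM at 3 months (-0.49 ± 0.14, adjusted p = 0.127, edgeR). Lpl, lipoprotein lipase, had 733, 952 and 1183 CPM at 15 months and 230, 781 and 311 CPM at 3 months (1.14 ± 0.34, adjusted p = 0.159, edgeR). Plin2 did not overlap between the ages, and Lpl did.

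Over all genes tested, 50.6% had negative ratios. With no member called, negative ratios were found for 13 of 19 immediate early genes (median -0.29), 9 of 11 heat shock chaperones (median -0.31), 6 of 8 interferon-stimulated genes (median -0.49) and 5 of 8 p53 and senescence genes (median -0.52). Cdkn1a, the cell cycle inhibitor p21, had 166, 231 and 310.5 CPM at 15 months and 381, 373 and 925 CPM at 3 months (-1.25 ± 0.34, adjusted p = 0.127, edgeR). Isg15, an interferon-induced ubiquitin-like protein, had 29.9, 66.3 and 43.8 CPM at 15 months and 111, 78.1 and 652 CPM at 3 months (-2.55 ± 0.65, adjusted p = 0.102, edgeR), where 3-month pool 3 was far above the rest. Of 12 mitochondrially encoded genes, mt-Co3 was called and 11 had positive ratios (median 0.45). The ages did not overlap for 9 of them, all higher at 15 months, against 7.62% of all genes tested. Mitochondrial UMIs of the median member made up 3.02%, 2.61% and 2.72% in the 15-month pools. They made up 2.14%, 2.35% and 1.74% in the 3-month pools. The part of this cell-quality measure in the ratios was not tested.

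**Figure D5:**
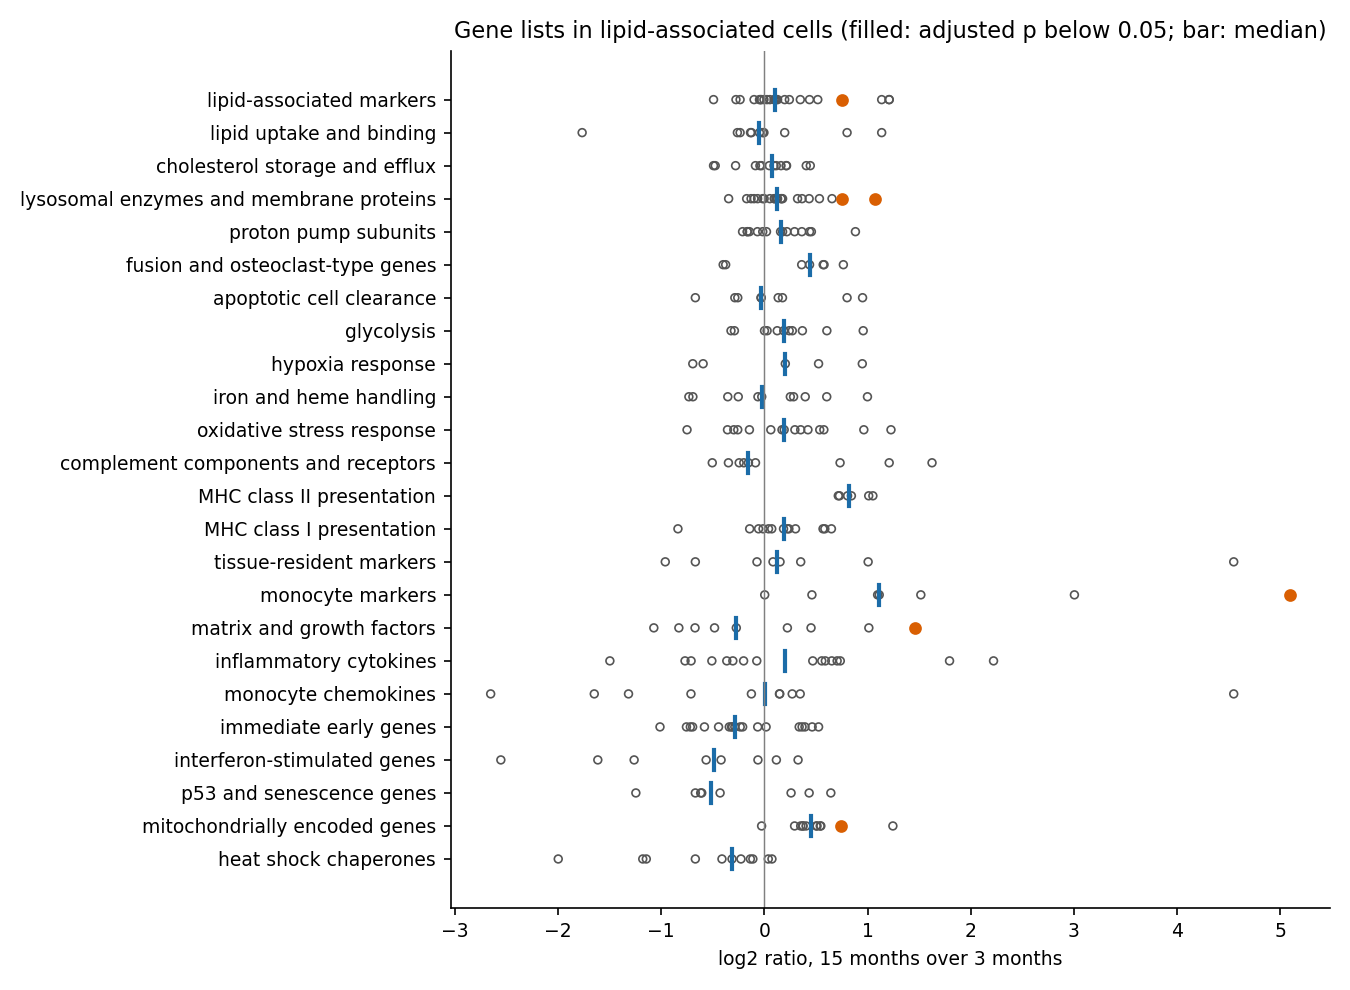
The log2 ratio, 15 months over 3 months, of each tested gene (x axis) by function list (rows) in lipid-associated cells; filled points passed an adjusted p of 0.05, open points did not, and the vertical bar is the list's median. MHC class II genes lie to the right (median 0.82) and heat shock chaperones to the left (median -0.31), with no gene of either list past the threshold.

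To ask whether any age difference was particular to these cells, the age effect in lipid-associated cells was tested against that in other C1q cells of the same pools. Pool was a block in this fit, so its p-values rest on the spread over pools of the difference between the classes. No gene of 7419 passed (0%, edgeR), 476 had an unadjusted p under 0.05, and the smallest adjusted p was 0.127. For Hp the difference between the log2 ratios was 4.65 ± 0.96 (adjusted p = 0.169, edgeR), with ratios of 5.09 in lipid-associated and 0.42 in other C1q cells. For Ctss it was 0.70 ± 0.21 (adjusted p = 0.446, edgeR), with ratios of 1.07 and 0.38. For Gm2a it was 1.01 ± 0.25 (adjusted p = 0.308, edgeR), with ratios of 1.15 and 0.12. In other C1q cells by themselves 26 of 7015 genes (0.371%) passed. All 19 genes called in lipid-associated cells and tested in other C1q cells had the same sign in both. The share with the same sign over all genes was not counted, so this does not show that the changes are shared. For Zfp36l2 the ratio in other C1q cells was only 0.008 ± 0.16. Of the 19 genes, 5 were called in both classes: Hbb-bs, Hba-a1, Hba-a2, Gm42418 and AY036118. Itgb2 had ratios of 1.66 in lipid-associated and 0.78 in other C1q cells, and Mmp14 had 1.46 and 0.79. The count for the difference was not stable: it was 14 without 15-month pool 1 and 5 without 3-month pool 2.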

How the data were processed

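Ovarian CD45+CD11b+ cells of 2 ages were profiled in 2 droplet 3' libraries, 1 per age, each with 3 hashtag pools. The authors deposited raw UMI counts for 31053 genes and 3 hashtags per barcode, with no normalization. Per the file headers the counts come from Cell Ranger 4.0.0, and per the submitters' processing notes the tools were Cell Ranger 7.0.0 and FastQC 0.11.4 with the build mm10; which Cell Ranger version made the matrices is uncertain. The target was 8000 cells per library, per the labels' protocols.

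Cells were gated as the report gives, member UMIs were summed per pool, and CPM are UMIs scaled to 1000000 gene UMIs of the summed cells. Fits used edgeR 4.0.16 (filterByExpr, TMM, quasi-likelihood F test) in R 4.3.3, tested on simulated data, with DESeq2 1.42.0 as an alternative. Cells were handled in Python 3.11.15 with scanpy 1.11.5. Shares used two-sided exact permutation tests over pools; those built on Spp1 and Fabp5 are given with no test, since the rule used both genes. Positions were matched by gene ID to GENCODE M21 (30934 of 31053 IDs), and promoters by symbol to RefSeq. RefSeq promoter sequences were used for Spp1, Trem2 and Gpnmb.

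The members, gene lists and tests were chosen with earlier results of these data known. Genes named were the rule genes and markers, the 15 highest and 8 lowest in the profile (at least 100 CPM, no overlap between pools), the called genes of at least 50 CPM (up to 10 each way), 3 per list by smallest p, and others named after their values were seen: those called under 50 CPM, list examples in the profile, and genes of the C1q split. The neutrophil gate was S100a8 and S100a9 of at least 200 and C1q under 20 per 10000 (497 cells). No doublets within a pool were removed. Pools of an age differed beyond counting noise (chi-square over degrees of freedom 2.50 to 3.85), so each was 1 replicate.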

Additional observations from a re-analysis of the deposited data

How the results depend on the processing

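Leaving out pools, a stricter hashtag ratio, mitochondrial limit, Spp1 and Fabp5 limit or Trem2 and Gpnmb limit, a haemoglobin limit, other scalings and filters, and 2 alternatives chosen after seeing the data (a limit of 30000 UMIs, and members with C1q of at least 20 per 10000) were tried. Of 529 values, 437 stayed the same, 69 calls of named genes were lost, 9 counts of called genes moved, and 14 values reversed. A share stayed the same if its direction held, and a named gene if its direction and call held. A count of called genes stayed the same if it kept within a set factor. The age fit called 20 genes; it called 249 with no filter on low counts, 32 with DESeq2, 31 in the C1q-high members, and 15 to 32 with 1 pool left out (32 without 15-month pool 3). The test of the difference between cell classes called 0, but 3 with at most 5% mitochondrial UMIs, 14 with Spp1 and Fabp5 of at least 40 per 10000, 77 with no filter, and 0 to 14 with 1 pool left out. Ctss, Itgb2, Ahnak2, Neat1, Gm42418, Hbb-bs, Hp and Hba-a1 kept their calls under every alternative in which they were tested; Hp was too low to test in the C1q-high members. The share difference ran from -0.228 to 2.45 percentage points with 1 pool left out. The difference in members with both genes reversed to 0.272 (hashtag ratio of 10), 0.0402 (5% mitochondrial) and 0.0926 (Trem2 and Gpnmb of at least 3), and ran from -4.12 to 2.93 with 1 pool left out. That in Folr2 detection, -1.24 points, was 1.64 without thinning and ran from -5.22 to 2.59 with 1 pool left out. That in Cd36 detection, -7.16 points, was 6.00 under the haemoglobin limit (which leaves 2 pools at 3 months) and 1.08 without thinning, and ran from -18.6 to 4.69 with 1 pool left out. The cause of these changes was not tested. Same-numbered pools did not deviate together (correlations 0.0140, -0.0642 and 0.0386), so the numbers do not pair the samples; the fit with pool number as a replicate block called 18 genes. The planned removal of scrublet doublets was not run, since the caller marked 1 and 0 barcodes and had not worked. The smallest pool sum, 125888 UMIs, limits genes of low level.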
